A study of Homo sapiens with 4 samples.

Results

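Glycolysis, lactate handling and the pentose phosphate pathway were examined as messenger RNA in LN229 cells, an established human glioblastoma line, after silencing of RAB38. The gene set was chosen by function and holds 32 genes for glucose uptake, the glycolytic steps, lactate and the pentose branch. Of these, 29 were found by gene symbol among the 22458 single-gene rows of the array table, and only these 29 are described. PGAM1, SLC16A1 and SLC16A3 had no row named by the annotation and were not analysed here. Whether one of the 1328 unnamed rows measures them was not examined, so the gap may lie in the annotation. SLC16A1 and SLC16A3 encode the main lactate transporters of tumour cells. Cells received RAB38-specific siRNA (siRAB38, n = 2 arrays) or a nontargeting siRNA pool (NT, n = 2 arrays). Both groups were transfected without serum, were brought to 1.5% fetal bovine serum 24 h later and gave RNA at 48 h. The data are one cell line at one time point, so they do not speak to other glioblastoma cells. No label names a separate culture for each array, so the p-values rest on the variation among 4 arrays, all of which could be technical.

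In glycolysis, a hexokinase traps glucose inside the cell as a phosphate, phosphofructokinase commits it to breakdown, and the lower steps return ATP and end in pyruvate, which lactate dehydrogenase converts to lactate. The pentose phosphate pathway branches off after the first step and supplies NADPH and ribose for nucleotides. Many tumours, glioblastoma among them, take up much glucose and release lactate even with oxygen present. Most steps are served by several isozymes from separate genes, which differ in tissue, regulation and response to low oxygen. The study followed acidification of the medium, a readout of glycolysis, and the comparison here asks whether transcripts of the pathway differ after RAB38 silencing.

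The arrays themselves were close to each other. Their medians lay between 3.47 and 3.51 on the log2 scale and every pair of arrays correlated at 0.993 to 0.994 across rows. The 2 NT arrays correlated highest, at 0.9944. SiRAB38 array 1 correlated at 0.9938 with NT array 2, against 0.9932 with siRAB38 array 2. RAB38, the silenced gene, read 2.52 and 3.43 in siRAB38 cells, against 4.69 and 4.78 in NT cells, a mean of 29.6% of the NT level (adjusted p = 0.720, limma). Among 10 glial and glioblastoma markers, VIM, CD44, TNC and S100B read between 9.39 and 11.36, and NES, SOX2 and FABP7 between 7.27 and 8.42. OLIG2 read between 4.72 and 5.19, SOX9 between 3.56 and 3.91, and GFAP, the classical astrocyte filament, between 2.81 and 3.35. In 4 of the 10 (40.0%, beside 36.0% of all genes) both siRAB38 arrays lay beyond both NT arrays, 2 above and 2 below. Of 11 markers of immune, endothelial, epithelial, hepatic, oligodendrocyte and neuronal cells, 9 lay between 1.23 and 2.51 in all arrays. The summed log2 values of the 11 genes were 30.1 and 29.5 in siRAB38 cells, against 29.4 and 29.3 in NT cells. KRT18 read 6.87 and 6.68 in siRAB38 cells, against 6.86 and 6.89 in NT cells, and the neuronal fusion gene SNAP25 read 6.68 and 6.77 in siRAB38 cells, against 6.09 and 6.09 in NT cells. The part of SNAP25 in the results below was not tested.

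After RAB38 silencing, the genes of the pathway lay on both sides of 0, with small differences. Of the 29 genes, 13 had a log2 fold change (siRAB38 minus NT) above 0 and 16 below 0. Their median was -0.0058, beside 0.0050 over all genes, and single values ran from -0.25 for SLC2A1 to 0.36 for HK2. No member passed an adjusted p of 0.05 in limma with Benjamini-Hochberg adjustment over all genes, nor did any of the 22458 genes (0% called), and the methods' t-test passed none either. At an unadjusted p under 0.05, limma gave 2 members (6.90%), HK2 and RPE, beside 6.85% of all genes. The methods' t-test also gave 2, but these were PFKFB3 and SLC2A1, beside 6.56% of all genes. The limma count changed with each array left out. By limma, the share of members was close to that of all genes.

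**Figure D1:**
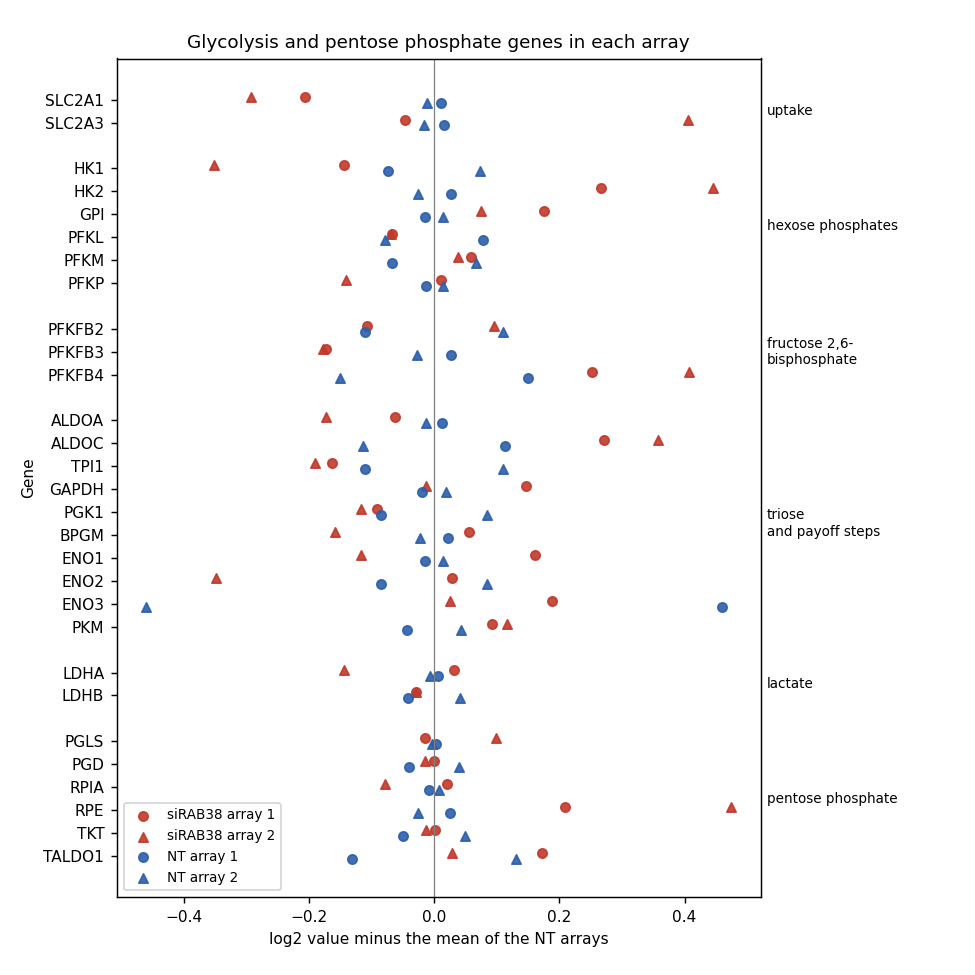
Log2 value of each of the 29 genes in each array, drawn relative to the mean of the NT arrays, with genes grouped by their place in the pathway. Red symbols are the siRAB38 arrays and blue symbols the NT arrays, circles array 1 and triangles array 2. HK2, PFKFB4, ALDOC and RPE have both red symbols clear to the right, and SLC2A1, HK1 and PFKFB3 have both to the left.

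The arrays of the groups were separated in 12 of the 29 genes, 6 with both siRAB38 arrays above both NT arrays and 6 with both below. Over all genes 36.0% were separated in this way, 18.8% with siRAB38 higher and 17.2% with siRAB38 lower, so the 41.4% of the members lay near the background. The genes above were HK2, GPI, PFKFB4, ALDOC, PKM and RPE. The genes below were SLC2A1, HK1, PFKFB3, ALDOA, TPI1 and PGK1. With 3 arrays in place of 4, separation is easier, and no share over all genes was taken there. The counts with 3 arrays, given with the processing alternatives, therefore have no background. In 10 of the 29 genes the difference between groups was larger than the gap between the arrays within either group, beside 25.0% of all genes. That gap had a median over the members of 0.11 between the siRAB38 arrays and of 0.08 between the NT arrays, beside 0.15 within groups over all genes.

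The intervals show how large a difference these arrays leave room for. The 95% confidence interval of the log2 fold change had a half-width of 0.26 to 0.79 over the members, with a median of 0.29. All 29 intervals lay within -1 and 1, taken gene by gene with no allowance for the number of genes. They rest on array variation that could all be technical and on values that RMA compresses in dim genes. A halving or doubling of a transcript in the cells is therefore not excluded. For 23 genes the interval also stayed within a 1.5-fold difference in either direction. The widest belonged to the muscle enolase gene ENO3, whose NT arrays read 4.63 and 3.71.

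**Figure D2:**
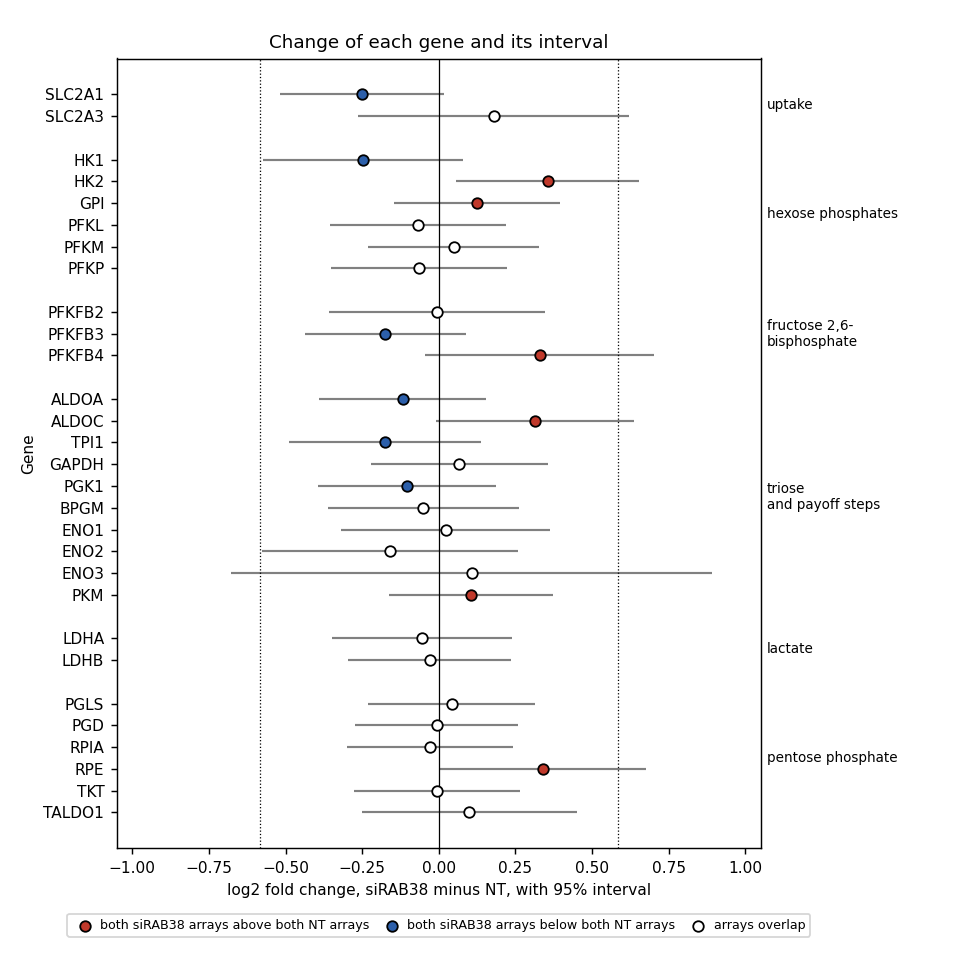
Log2 fold change (siRAB38 minus NT) of each of the 29 genes with its 95% interval from limma. Red points mark genes with both siRAB38 arrays above both NT arrays, blue points those with both below, and open points those with overlap. The dotted lines mark a 1.5-fold difference, which 23 of the intervals do not cross.

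Glucose enters these cells through facilitative transporters. SLC2A1 encodes GLUT1, the transporter of most proliferating cells. It read 8.79 and 8.70 in siRAB38 cells, against 9.00 and 8.98 in NT cells. The groups were separated, and the gap between groups exceeded the gap within either. The log2 fold change was -0.25 (standard error 0.11, 95% interval from -0.52 to 0.02), or 84.1% of the NT level, with an adjusted p = 0.720 from limma. Without any 1 array it ran from -0.29 to -0.21. SLC2A3 encodes GLUT3, the high-affinity transporter typical of neurons. It read 3.63 and 4.08 in siRAB38 cells, against 3.69 and 3.66 in NT cells. A single array, siRAB38 array 2, stood above the other three, and without it the log2 fold change was -0.05 rather than 0.18.

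The hexokinases, which phosphorylate glucose on entry, lay on opposite sides. HK2, the inducible form that is abundant in glioblastoma, read 6.05 and 6.23 in siRAB38 cells, against 5.81 and 5.76 in NT cells. The siRAB38 arrays were the higher pair, with no overlap. The log2 fold change was 0.36 (standard error 0.12, 95% interval from 0.06 to 0.65), or 128.0% of the NT level (unadjusted p = 0.0276, adjusted p = 0.720, limma), and ran from 0.27 to 0.45 without any 1 array. HK1, the broadly expressed form of brain, read 7.32 and 7.11 in siRAB38 cells, against 7.39 and 7.54 in NT cells. Here the siRAB38 arrays were the lower pair, the first by a small margin. The log2 fold change was -0.25 (standard error 0.13, 95% interval from -0.57 to 0.08), or 84.2% of the NT level, with an adjusted p = 0.745 from limma, and was -0.14 without siRAB38 array 2. GPI, which converts glucose phosphate to fructose phosphate, read 9.39 and 9.29 in siRAB38 cells, against 9.20 and 9.23 in NT cells, a log2 fold change of 0.13 (standard error 0.11).

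Short promoter sequences are shown for HK2, ALDOC, LDHA and SLC2A1, because HK2 and ALDOC were higher, SLC2A1 was lower and LDHA did not separate between groups. Each is the stretch of 250 bases before a RefSeq transcription start in GRCh38.p14, read from 5′ to 3′ on the strand of the gene. Capitals mark CACGTG, the palindromic E-box that MYC with MAX and related factors can bind.
HK2, chr2:74834920-74835169, plus strand: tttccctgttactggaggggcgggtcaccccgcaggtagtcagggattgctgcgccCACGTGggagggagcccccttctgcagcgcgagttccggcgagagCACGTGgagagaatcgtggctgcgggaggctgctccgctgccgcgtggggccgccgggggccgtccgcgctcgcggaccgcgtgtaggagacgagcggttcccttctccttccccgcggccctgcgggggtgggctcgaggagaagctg
ALDOC, chr17:28576896-28577145, minus strand: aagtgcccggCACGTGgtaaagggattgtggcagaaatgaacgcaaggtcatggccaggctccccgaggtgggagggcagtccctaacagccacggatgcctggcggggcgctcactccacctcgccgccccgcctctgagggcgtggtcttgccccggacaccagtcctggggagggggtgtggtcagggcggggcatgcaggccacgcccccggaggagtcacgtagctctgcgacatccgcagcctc
LDHA, chr11:18394313-18394562, plus strand: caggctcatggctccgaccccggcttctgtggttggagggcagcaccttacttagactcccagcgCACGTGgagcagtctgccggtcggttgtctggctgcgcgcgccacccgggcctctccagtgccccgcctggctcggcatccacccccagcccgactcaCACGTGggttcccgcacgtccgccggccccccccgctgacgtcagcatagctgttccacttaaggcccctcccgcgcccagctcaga
SLC2A1, chr1:42958869-42959118, minus strand: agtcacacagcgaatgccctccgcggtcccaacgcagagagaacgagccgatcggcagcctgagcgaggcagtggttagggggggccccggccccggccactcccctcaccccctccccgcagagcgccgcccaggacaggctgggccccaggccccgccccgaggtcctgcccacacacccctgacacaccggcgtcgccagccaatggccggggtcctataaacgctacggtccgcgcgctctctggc
The HK2 window held 2 matches, that of LDHA also 2, that of ALDOC 1 and that of SLC2A1 0. HK2 and LDHA have 2 windows each on record, of which the one with more matches is shown, and the other window of each held 0. A promoter was on record for 27 of the 29 measured genes, with 49 windows in all, as some genes have several starts. CACGTG, which reads the same on both strands, was in 6 of the 49 windows (12.2%), beside 6.34% of 35116 windows of this length over all genes. Its genes were HK2, ALDOC and LDHA with ALDOA, GAPDH and PFKFB3. Of these, HK2 and ALDOC were higher, ALDOA and PFKFB3 were lower and LDHA and GAPDH overlapped between groups. ACGTG, the core of many hypoxia response elements and a part of each CACGTG, was on either strand of 17 windows (34.7%), beside 18.5% of all windows. GCGTG, the other common core, was in 15 windows (30.6%), beside 32.2%. Windows of one gene can overlap, and a match is a description of the letters only.

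Phosphofructokinase, the committing step, showed little difference. PFKL of liver type had a log2 fold change of -0.07, PFKM of muscle type 0.05 and PFKP of platelet type -0.06, each with a standard error of 0.11. Their arrays overlapped between groups, and each interval stayed between -0.36 and 0.33. The bifunctional PFKFB enzymes set the level of fructose bisphosphate that activates phosphofructokinase. PFKFB4 read 6.31 and 6.46 in siRAB38 cells, against 6.21 and 5.91 in NT cells. Both siRAB38 arrays were higher, although the NT arrays differed from each other by nearly as much as the groups did. The log2 fold change was 0.33 (standard error 0.15, adjusted p = 0.724, limma), with a range of 0.18 to 0.48 without any 1 array, the lowest being without NT array 2. PFKFB3, whose product has high kinase and little phosphatase activity, read 7.11 and 7.10 in siRAB38 cells, against 7.31 and 7.25 in NT cells. The siRAB38 arrays were nearly equal and below both NT arrays. The log2 fold change was -0.17 (standard error 0.10, adjusted p = 0.764, limma), or 88.6% of the NT level. PFKFB2 of heart type read 5.00 and 5.20 in siRAB38 cells, against 5.00 and 5.22 in NT cells. Its groups were all but identical.

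Aldolase, which splits the sugar into trioses, again had one gene on each side. ALDOC, the brain form, read 3.43 and 3.51 in siRAB38 cells, against 3.27 and 3.04 in NT cells. Both siRAB38 arrays were higher, by 0.31 on the log2 scale (standard error 0.13, 95% interval from -0.01 to 0.64, adjusted p = 0.720, limma). Without any 1 array it ran from 0.20 to 0.43, with the lowest value without NT array 2. Its values lie near the array medians, where RMA compresses differences. ALDOA, the ubiquitous form, had -0.12 (standard error 0.11), with both siRAB38 arrays lower. TPI1, which interconverts the trioses, and PGK1, the first enzyme of the pathway to return ATP, also had both siRAB38 arrays lower, with log2 fold changes of -0.18 and -0.10. In PGK1 the margin between the closest arrays was within rounding, at 8.85 in both groups.

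The remaining lower steps differed little. GAPDH, which oxidises the triose and serves widely as a loading control, read 11.54 and 11.38 in siRAB38 cells, against 11.38 and 11.42 in NT cells. The arrays overlapped, and the difference was 0.07 (standard error 0.11, 95% interval from -0.22 to 0.36). PKM, the pyruvate kinase of tumours, read 10.34 and 10.37 in siRAB38 cells, against 10.21 and 10.29 in NT cells. Both siRAB38 arrays were higher, with a difference of 0.10 (standard error 0.11, adjusted p = 0.875, limma). The row does not separate the splice forms of this gene. The enolases ENO1, ENO2 and ENO3 had log2 fold changes of 0.02, -0.16 and 0.11, and BPGM, which makes bisphosphoglycerate, had -0.05, all with overlap between groups.

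Lactate dehydrogenase was level between groups. LDHA, the form that favours lactate formation, read 6.06 and 5.89 in siRAB38 cells, against 6.04 and 6.03 in NT cells. The siRAB38 arrays lay on both sides of the NT arrays, and the difference was -0.06 (standard error 0.12, 95% interval from -0.35 to 0.24). LDHB, the form that favours the return to pyruvate, read 8.24 in both arrays of siRAB38 cells, against 8.23 and 8.32 in NT cells. The siRAB38 value lay between the NT values, and the difference was -0.03 (standard error 0.10, 95% interval from -0.30 to 0.24). In linear terms the intervals ran from 78.5% to 118.0% of the NT level for LDHA and from 81.4% to 117.9% for LDHB.

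In the pentose phosphate pathway, only RPE of the 6 genes had separated groups (16.7%, beside 36.0% of all genes). RPE, the epimerase that turns ribulose phosphate into xylulose phosphate, read 5.68 and 5.94 in siRAB38 cells, against 5.49 and 5.44 in NT cells. No overlap was seen, with siRAB38 higher. The log2 fold change was 0.34 (standard error 0.13, 95% interval from 0.01 to 0.68, unadjusted p = 0.0474, adjusted p = 0.720, limma), or 126.7% of the NT level. Without siRAB38 array 2 it was 0.21. A near-identical retrogene of RPE exists, and whether probes are shared with it was not tested. PGD, the second NADPH-yielding enzyme, read 7.96 and 7.94 in siRAB38 cells, against 7.92 and 8.00 in NT cells. TKT, the transketolase that links the pathway back to glycolysis, read 9.67 and 9.66 in siRAB38 cells, against 9.62 and 9.72 in NT cells. For both enzymes the siRAB38 arrays lay between the NT arrays and the log2 fold change was -0.01. The lactonase PGLS had 0.04, the isomerase RPIA -0.03 and the transaldolase TALDO1 0.10, with overlap between groups in each.

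The difference of 2 related genes within one array does not move with the scaling of that array, so 9 such pairs were compared. The within-array difference separated the groups in 5 of the 9 pairs, beside 36.0% of single genes. No background was set up for pairs, so this count is a description. For HK2 minus HK1, it stood at 0.41 and 0.80 in siRAB38 cells, against 0.10 and -0.10 in NT cells, all relative to the NT mean. The ratio of HK2 to HK1 was thus 1.52-fold higher in siRAB38 cells. The shift of 0.60 on the log2 scale was 0.41 without siRAB38 array 2. For PFKFB4 minus PFKFB3, the values were 0.42 and 0.58 in siRAB38 cells, against 0.12 and -0.12 in NT cells, a ratio 1.42-fold higher. For ALDOC minus ALDOA, they were 0.33 and 0.53 in siRAB38 cells, against 0.10 and -0.10 in NT cells, a ratio 1.35-fold higher. In these pairs both siRAB38 arrays stood clear of both NT arrays. That was fixed in advance, because in each pair the first gene separated upward and the second downward on its own. It adds nothing to the single-gene results.

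For SLC2A3 minus SLC2A1, the values relative to the NT mean were 0.16 and 0.70 in siRAB38 cells, against 0.004 and -0.004 in NT cells. The mean shift of 0.43 was 0.16 without siRAB38 array 2. ENO2 minus ENO1 separated the other way, by -0.18, which was -0.11 without NT array 2. LDHA minus LDHB overlapped between groups, with a shift of -0.03, as did PFKL and PFKP against PFKM, with shifts of -0.12 and -0.11, and PFKFB3 minus PFKFB2, with -0.17. An exact two-sided permutation test over 2 against 2 arrays cannot give a p below 0.333, which is what each separated pair had (adjusted p = 0.600 over the 9 pairs). No pair passed the test, and the values give no level of one gene against another.

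**Figure D3:**
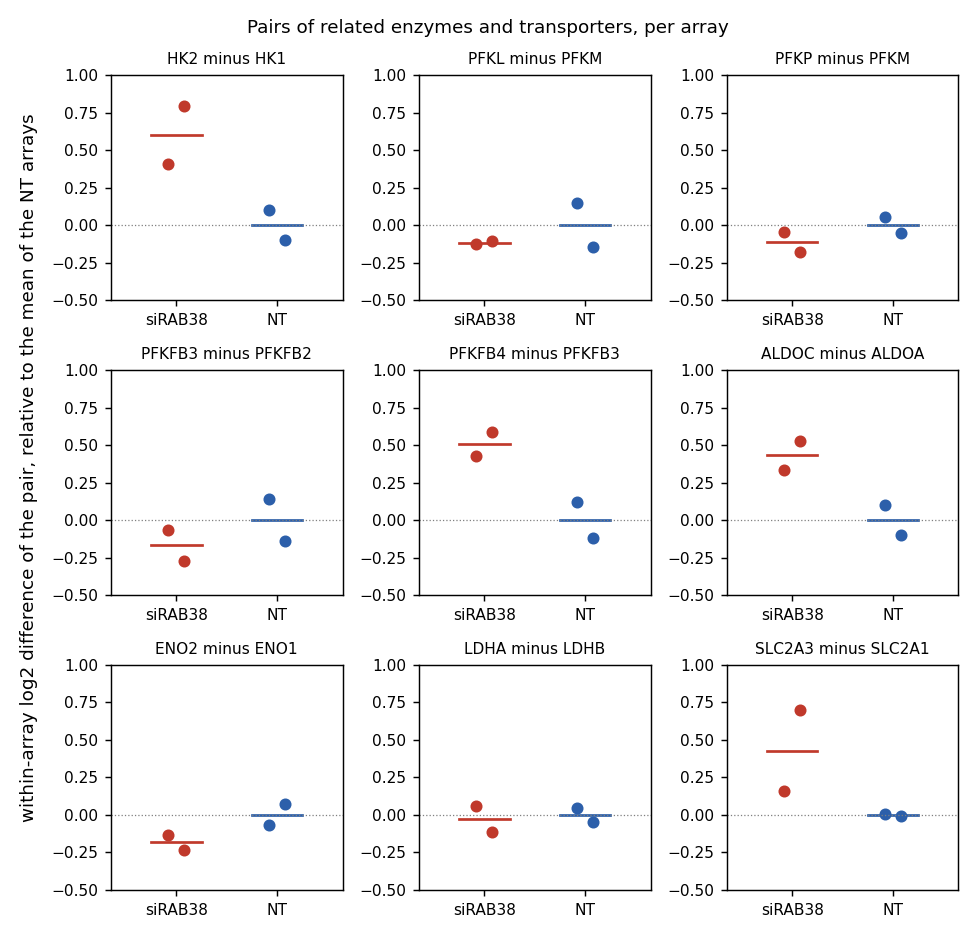
Within-array log2 difference of each pair, relative to the mean of the NT arrays, with siRAB38 arrays on the left and NT arrays on the right of each panel. Points are arrays (array 1 left of array 2) and bars group means. The groups are separated in 5 of 9 panels, HK2 minus HK1 among them, and overlap for the lactate dehydrogenase pair.

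Genes that surround the pathway gave no adjusted p under 0.05 in limma in either direction in any of 5 lists. Among 31 measured genes of side branches and further isozymes, 14 lay above 0 and 17 below, and the median was -0.03. TIGAR, a phosphatase that lowers the fructose bisphosphate made by the PFKFB enzymes and steers sugar to the pentose branch, read 6.17 and 6.22 in siRAB38 cells, against 5.69 and 5.85 in NT cells. It had the smallest unadjusted p of this list (0.0130, adjusted p = 0.720, limma), and lay 0.43 higher on the log2 scale (standard error 0.11), which ran from 0.34 to 0.51 without any 1 array. PGM2L1, which makes glucose bisphosphate, and PYGL, the liver glycogen phosphorylase, had log2 fold changes of 0.28 and 0.27. ADPGK, an ADP-dependent glucokinase, had -0.28, or -0.16 without siRAB38 array 1. All of these separated between the groups, as did 32.3% of the list, beside 36.0% of all genes.

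Transport partners and glucose-sensing genes numbered 16, of which 10 lay above 0 and 5 below. In 31.2% of them the groups separated, beside 36.0% of all genes. Among them, the monocarboxylate transporter SLC16A7 read 5.43 and 5.59 in siRAB38 cells, against 5.44 and 5.46 in NT cells. The related SLC16A8 read 3.42 and 3.79 in siRAB38 cells, against 3.07 and 3.85 in NT cells. Both overlapped between groups, with log2 fold changes of 0.07 and 0.14. BSG, the chaperone that brings lactate transporters to the membrane, had a log2 fold change of 0.01. The glucose transporter gene SLC2A10 had 0.26, and SLC2A13, which encodes a myo-inositol carrier, had 0.18, or 0.10 without NT array 1. SLC2A4 read between 1.92 and 2.34, within the range given above for 9 markers of other cell types, and no difference is given for it. TXNIP, which responds to glucose and restrains its uptake, read 8.05 and 8.36 in siRAB38 cells, against 8.15 and 7.77 in NT cells, with overlap. Of 12 genes that control the entry of pyruvate into mitochondria, 5 lay above 0 and 7 below, with a median of -0.07. The share that separated was 41.7%, beside 36.0% of all genes. PDK4, a kinase that closes the pyruvate dehydrogenase complex, read 4.51 and 4.66 in siRAB38 cells, against 4.24 and 4.21 in NT cells. Its log2 fold change was 0.36 (standard error 0.11, adjusted p = 0.720, limma). PDK2 had 0.25 with overlap, or 0.09 without NT array 1. PDK1, the hypoxia-responsive kinase, and PDHX, a structural subunit, had -0.16 each, and PDHX had -0.10 without NT array 1.

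Targets of hypoxia-inducible factors (HIF) outside glycolysis were divided evenly, with 12 of 24 above 0 and 12 below and a median of -0.01. In 11 of them (45.8%, beside 36.0% of all genes) the groups were separated, 7 higher and 4 lower with siRAB38. ANGPTL4, a secreted inhibitor of lipoprotein lipase, lay 0.57 higher on the log2 scale (standard error 0.18), or 0.37 without NT array 1, and HILPDA of lipid droplets had 0.29. P4HA1, a collagen prolyl hydroxylase, and the peptide hormone gene ADM had -0.36 and -0.22. Of 17 regulators of glycolytic genes, 9 lay above 0 and 8 below, and 11 (64.7%) were separated, 7 higher and 4 lower, beside 36.0% of all genes. VHL, which marks HIF for destruction, read 4.99 and 4.94 in siRAB38 cells, against 4.69 and 4.63 in NT cells. For HIF1A the log2 fold change was -0.15 and for MYC, a known activator of HK2 and LDHA, it was -0.57 (standard error 0.22), or -0.29 without siRAB38 array 2. PRKAA1 and PRKAG1, subunits of the energy sensor AMPK, had -0.37 and -0.23, the second of which was -0.07 without NT array 1. All 6 lists held genes on both sides of 0.

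**Figure D4:**
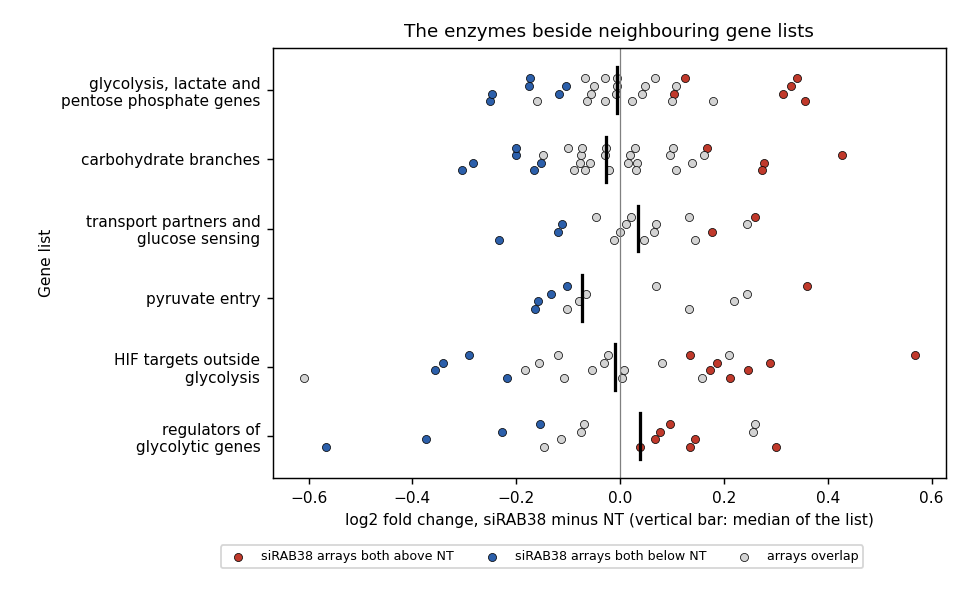
Log2 fold change (siRAB38 minus NT) of the 29 pathway genes and of the 5 surrounding lists, 1 point per gene, with a bar at the median of each list. Red points have both siRAB38 arrays above both NT arrays, blue points both below, and grey points overlap. All 6 medians lie between -0.07 and 0.04.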

How the data were processed

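RNA of LN229 cells was labelled with the Affymetrix WT Plus kit. The authors deposited log2 values made with RMA (background correction, quantile normalization, probe summary), with affy 1.60.0 in R 3.5.1 listed in the processing notes of the submitters. The probe definition and genome build are not given in the sources used here. RMA hides a shift of all genes in one direction and compresses dim genes. Genes with near-identical copies, such as GAPDH, LDHA and PGK1, may share probes with them.

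Arrays were grouped by title. Of 23786 rows, 22458 had 1 gene symbol in the platform annotation, none had several and 1328 had none and were left unnamed. All symbols matched RefSeq (GRCh38.p14) by gene identifier. SiRAB38 was compared with NT by limma 3.58.1 in R 4.3.3 (lmFit, eBayes without trend, prior degrees of freedom 3.15, Benjamini-Hochberg over 22458 genes, adjusted p of 0.05), since the methods name ANOVA and a t-test only in general. The unnamed rows were left out of this fit, and no row was left out for low values. Pairs were compared with an exact permutation test in scipy 1.17.1. The fits were tested on simulated data. The number of arrays limits the precision.

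The members and lists were chosen with earlier results of these data known. Array by array, members are given that separate with a log2 fold change of at least 0.2, besides HK1, HK2, PFKFB3, SLC2A1, LDHA, LDHB, PKM, GAPDH, PGD and TKT, and up to 4 genes per surrounding list by unadjusted p; SNAP25, KRT18, GFAP, GPI, BSG, HIF1A, SLC16A7, SLC16A8, SLC2A3, PFKFB2 and the rest were named after their values were seen. Alternatives covered normalization, dim genes, rows, the variance prior, weighted arrays, a block for replicate number, the methods' t-test and leaving out each array.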

Additional observations from a re-analysis of the deposited data

How the results depend on the processing

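No member and no gene passed the adjusted threshold under any alternative run, and the smallest adjusted p of a named gene was 0.502. Limma gave 2 of the 29 members at an unadjusted p under 0.05, beside 1539 of the 22458 genes (6.85%). With array medians subtracted it gave 1 member, beside 1511 genes. The replicate block gave 0 members, beside 1249 genes, and a variance trend 3 members, beside 1626 genes. With 1 array left out, a group holds only 1 array, so no count is given for those fits. Without any 1 array, the members with separated groups numbered 8 to 13 higher and 8 to 13 lower, as 3 arrays separate more readily than 4. No share over all genes was taken with 3 arrays. These counts therefore have no background, and whether the members differ from other genes there was not tested. The higher count was 12 without siRAB38 array 2 and 13 without NT array 2, and the lower count 12 without siRAB38 array 1 and 13 without NT array 1. Differences near 0 took either sign without 1 array. These ran from -0.26 to 0.028 for PFKL minus PFKM, from -0.11 to 0.062 for LDHA minus LDHB, from -0.14 to 0.033 for LDHA, from -0.071 to 0.012 for LDHB, from -0.013 to 0.15 for GAPDH, from -0.047 to 0.033 for PGD and from -0.055 to 0.045 for TKT. The other pairs and the other genes chosen by the naming rule kept their sign in each alternative run. The median of the members ran from -0.031 to 0.033 without 1 array. Deviations of the same-numbered arrays from their group means correlated at -0.05 across genes. No label says whether same-numbered arrays were handled together, and this correlation cannot decide it. With the replicate block the median was -0.0058 and 0 members passed. For SLC16A3 against SLC16A1 the planned pair was not run.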
